A study of Mus musculus with 60 samples.

Results

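Fbxo15, Nr0b1, Dppa2, Dppa3, Dppa4, Utf1 and Lin28a are 7 marker genes of mouse embryonic stem cells that lie outside the core transcription factors. They were chosen by name from the 19938 gene symbols tested, and each was represented by its brightest probe set, the one with the highest mean over all arrays. All 7 were measured. They had 10 of the 35556 probe sets of the table, 2 each for Dppa2, Dppa3 and Dppa4 and 1 for each other gene. RNA was measured on 60 Affymetrix mouse gene arrays from R1 cells, an established mouse embryonic stem cell line. The cells were cultured on feeder cells, which were removed beforehand, and the undifferentiated cells were exposed for 6 h. Every group, controls included, received DMSO at 0.1%, and the controls received DMSO alone. There were 3 arrays for each of 20 groups.

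The 10 compounds that the labels class as teratogens were (-)-d-penicillamine at 1 mM, (+/-)-thalidomide at 0.35 mM, 5-azacytidine, all trans retinoic acid at 0.024 mM, dexamethasone (spelled Dexamethazone there) at 0.1 mM, dimethadione at 1 mM, fluconazole at 1 mM, topiramate at 1 mM, methotrexate at 0.028 µM and VPA, valproic acid, at 1 mM. The labels disagree on the dose of 5-azacytidine, with titles that give 0.23 µM and characteristics that give 23 µM. The 9 compounds classed as non-teratogens were chlorthalidone at 1 mM, clozapine at 0.028 mM, glybenclamide at 0.37 mM, hydrochlorothiazide at 1 mM, loratadine at 0.043 mM, metoclopramide at 0.17 mM, ondansetron at 0.054 mM, paracetamol at 1 mM and sulfasalazine at 1 mM. VPA is an antiepileptic drug that also inhibits histone deacetylases, retinoic acid is the ligand of the retinoic acid receptors, and paracetamol is a pain reliever. The labels call the 3 arrays of a group triplicates but do not say that they came from separate cultures. The p-values therefore measure the spread between these arrays, which may be technical.

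Mouse embryonic stem cells hold themselves undifferentiated with a network of transcription factors around Oct4, Sox2 and Nanog, and that network switches on a second tier of genes that mark the state. Fbxo15, Utf1 and Nr0b1 are textbook members of this second tier, and Fbxo15 and Utf1 carry enhancers bound by Oct4 and Sox2. Dppa2, Dppa3 and Dppa4 are named for developmental pluripotency, and Lin28a encodes an RNA-binding protein that keeps the let-7 microRNAs low in stem cells.

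Medians of the deposited log2 signal lay between 7.58 and 7.79 on the 60 arrays, and no pair of arrays held identical values. The interquartile range of an array was 2.97 to 3.31 log2 units, and the narrowest were hydrochlorothiazide replicates 1 and 2 and dexamethasone replicate 3. The embryonic stem cell markers Pou5f1, Sox2, Nanog, Zfp42 and Esrrb were brighter than 87.5% to 98.8% of the probe sets tested. Among 12 markers of feeder fibroblasts, Lum was brighter than 2.98% and Fn1, which many cell types express, than 98.9%. The median over the 12 was 56.6%. Acta2 (98.6%), Col1a1 (80.3%) and Col1a2 (72.8%) were bright too, while Dcn (32.3%) and Postn (29.9%) were dim. In this bulk RNA, fewer cells of a type and less RNA per cell cannot be told apart.

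Each compound was compared with the same 3 DMSO arrays, so the 19 comparisons are not independent of each other. A change is given as the log2 difference from DMSO ± its SE in one limma model of all 60 arrays, and a call means an adjusted p under 0.05. Of 133 pairs of a gene and a compound, 15 were called, against 5.04% of such pairs over all 21789 probe sets tested. The genes fell in 11 of the 15 and rose in 4, and 26 pairs had an unadjusted p under 0.05. VPA lowered 5 of the 7 genes, and paracetamol lowered 3. Retinoic acid raised 3, loratadine raised 1 and lowered 1, and glybenclamide and dexamethasone lowered 1 each.

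The shares of all tested probe sets called with these compounds give the background. With VPA 26.5% were called, 11% lower and 15.5% higher. With paracetamol 8.76% were called, 4.15% lower and 4.61% higher. With retinoic acid 9.82% were called, 3.92% lower and 5.9% higher. The share was 19.2% with loratadine (8.26% lower, 10.9% higher), 9.54% with glybenclamide (2.75% lower, 6.79% higher) and 6.25% with dexamethasone (4.74% lower, 1.51% higher). Against these, 5 of 7 lower with VPA and 3 of 7 lower with paracetamol were shares above the background, as were 3 of 7 higher with retinoic acid, while the single calls with glybenclamide and dexamethasone were 1 gene in 7. The 7 genes were chosen with earlier results of these data known. Their probe sets were brighter than 63.7% (Dppa3) to 99.3% (Utf1) of those tested, and the background was not matched for level.

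None of the 7 genes was called with the other 13 compounds, where the smallest adjusted p by limma was 0.226, that of Fbxo15 with dimethadione. These compounds called few probe sets in all, apart from sulfasalazine with 8.9%: chlorthalidone called 2.58%, hydrochlorothiazide 2.17%, clozapine 1.31%, ondansetron 0.33%, metoclopramide 0.197%, dimethadione 0.119%, and the other 6 compounds 0%. Among these 13, 4 pairs had an unadjusted p under 0.05: Fbxo15 with clozapine and dimethadione, Dppa3 with topiramate and Lin28a with chlorthalidone.

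**Figure D1:**
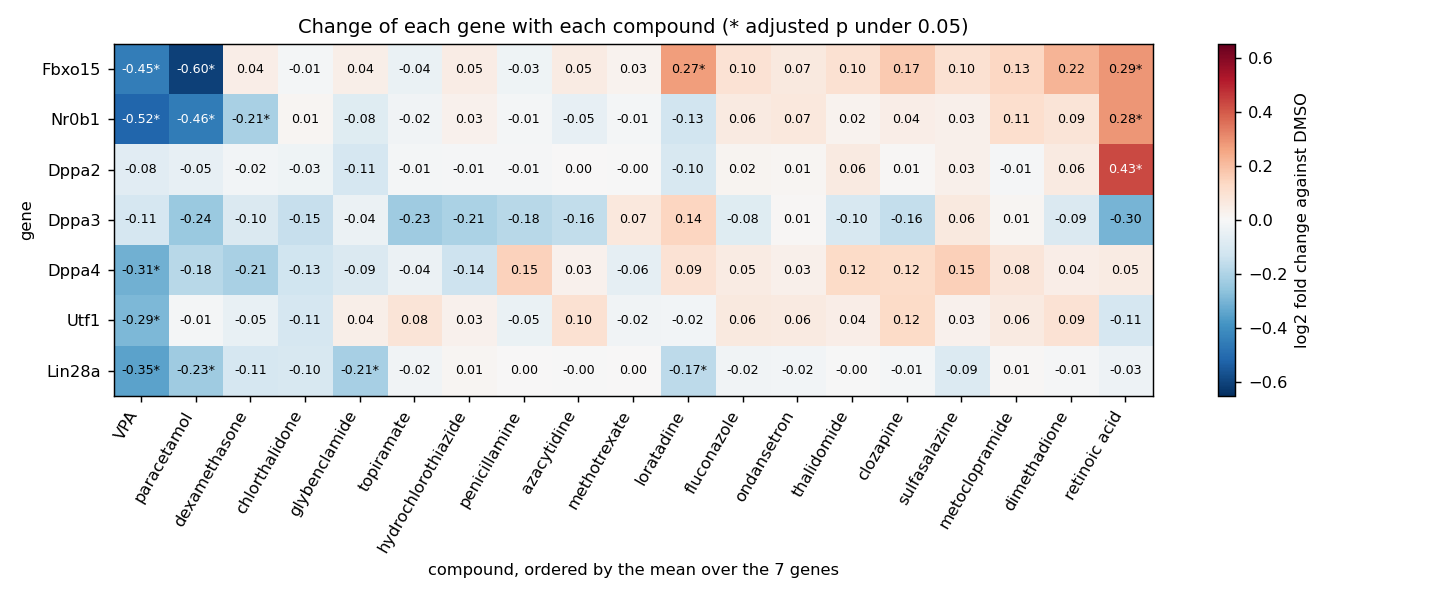
Log2 change against DMSO of each of the 7 genes (vertical axis) with each of 19 compounds (horizontal axis, ordered by the mean over the genes), coloured from blue (lower) to red (higher), with an asterisk where limma's adjusted p was under 0.05. The VPA and paracetamol columns are the bluest, with 5 and 3 asterisks, and the retinoic acid column holds 3 red cells with asterisks.

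Fbxo15 encodes an F-box protein, the part of a ubiquitin ligase that recognises its substrates, and a reporter placed in its gene was used to pick out reprogrammed cells. It fell most with paracetamol and also fell with VPA, and it rose with retinoic acid and loratadine. The DMSO arrays read 11.17, 10.94 and 11.12 on the log2 scale, a mean of 11.07 ± 0.121 (SD, n = 3). The paracetamol arrays read 10.45, 10.44 and 10.52 and the VPA arrays 10.54, 10.72 and 10.61. All 6 lay below the lowest DMSO array, and every paracetamol array lay below every VPA array. The change was -0.60 ± 0.073 with paracetamol, which leaves 65.8% of the DMSO signal (adjusted p = 4.38e-08), and -0.45 ± 0.073 with VPA, which leaves 73.1% (adjusted p = 2.27e-06).

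The retinoic acid arrays of Fbxo15 read 11.37, 11.50 and 11.22, and the loratadine arrays 11.33, 11.32 and 11.39. Both sets lay above the highest DMSO array, retinoic acid replicate 3 by the least. The changes were 0.29 ± 0.073 with retinoic acid (adjusted p = 0.00531) and 0.27 ± 0.073 with loratadine (adjusted p = 0.00561). The first was lost in a model of the 6 arrays alone (adjusted p = 0.123), without DMSO replicate 2 (adjusted p = 0.102) and without retinoic acid replicate 2 (adjusted p = 0.0977), and the second without DMSO replicate 2 (adjusted p = 0.0878), which was the lowest DMSO array of this gene. Over the 20 groups the means of Fbxo15 ran from 10.47 with paracetamol to 11.36 with retinoic acid. In that order 17 of 19 neighbouring groups overlapped, and the gap between VPA and topiramate, 0.41, was the widest.

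Of the other subunits of the Fbxo15 ubiquitin ligase, the scaffold gene Cul1 fell with VPA by 0.54 ± 0.060 (adjusted p = 5.23e-10) and rose with retinoic acid by 0.18 ± 0.060 (adjusted p = 0.0446). With paracetamol Cul1 differed by -0.04 ± 0.060 (adjusted p = 0.861). The adaptor gene Skp1 and the RING gene Rbx1 were called with none of the 6 compounds that changed at least 1 of the 7 genes.

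**Figure D2:**
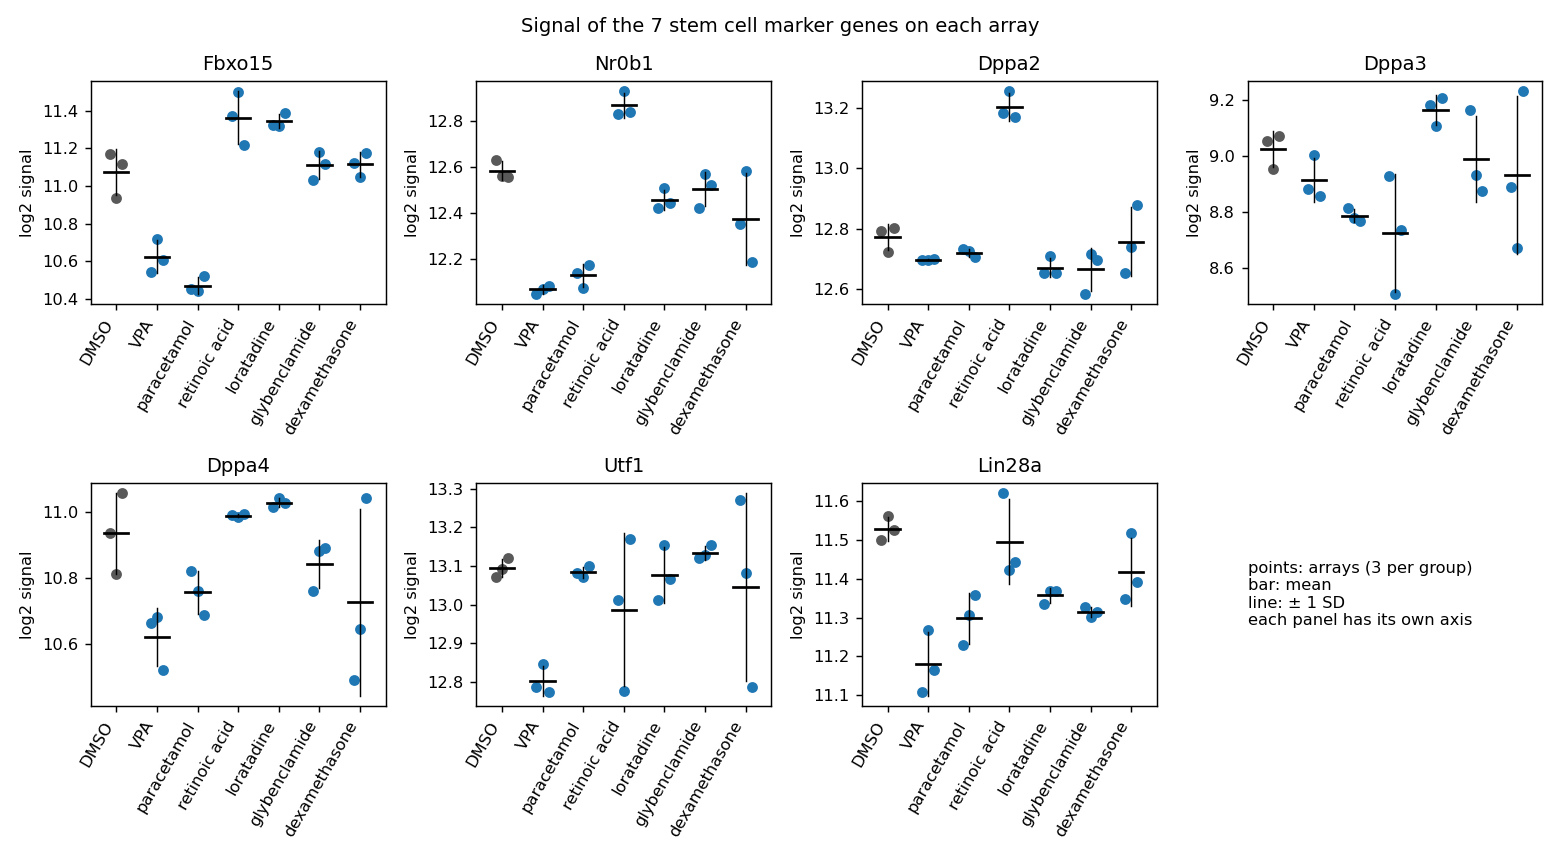
Log2 signal (vertical axes, a separate scale for each gene) of the 7 genes on every array of DMSO and of the 6 compounds with at least 1 call. Points are arrays, 3 per group, bars are group means and lines are ± 1 SD; the VPA points of Fbxo15, Nr0b1, Dppa4, Utf1 and Lin28a lie below all DMSO points, and the retinoic acid points of Dppa2 stand above all others.

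Nr0b1 encodes DAX1, an orphan nuclear receptor that acts as a corepressor of other nuclear receptors and partners Oct4 in stem cells. It fell with VPA, paracetamol and dexamethasone and rose with retinoic acid. Its promoter is shown because the gene changed with a ligand of nuclear receptors and with VPA. RefSeq (GRCm38.p6) places the 250 bases before its start at chrX:86191525-86191774 on the plus strand, and the capitals mark the only matches, AGGTCA, the core element that many nuclear receptors recognise, 126 to 121 bases before the start and TATAAA, the TATA box, 32 to 27 bases before it.
Nr0b1: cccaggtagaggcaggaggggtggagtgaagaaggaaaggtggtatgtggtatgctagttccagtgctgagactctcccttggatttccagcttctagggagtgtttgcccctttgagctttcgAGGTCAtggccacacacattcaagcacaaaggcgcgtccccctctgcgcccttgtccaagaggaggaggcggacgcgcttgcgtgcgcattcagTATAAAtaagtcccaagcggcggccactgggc
AGGTCA is held by 14% and the TATA box by 12.3% of 32536 such windows of the mouse genome. The search also covered ATGCAAAT (in 1.62% of the windows), ATTGTT (9.35%), AAGGTCA, which includes the core element (4.09%), GGGCGG (33%) and CCAAT (33.8%), on both strands. A match is a run of letters and does not show that a protein binds there.

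The DMSO arrays of Nr0b1 read 12.63, 12.56 and 12.56 (mean 12.58 ± 0.041, SD, n = 3). The VPA arrays read 12.05, 12.07 and 12.08, and the paracetamol arrays 12.14, 12.07 and 12.17. All 6 lay below every DMSO array, and the VPA arrays lay close together. The changes were -0.52 ± 0.059 with VPA, to 69.9% of the DMSO signal (adjusted p = 8.72e-10), and -0.46 ± 0.059 with paracetamol, to 72.9% (adjusted p = 2.28e-07).

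The retinoic acid arrays of Nr0b1 read 12.83, 12.93 and 12.84, all above every DMSO array, and the change was 0.28 ± 0.059 (adjusted p = 0.000467). The dexamethasone arrays read 12.35, 12.59 and 12.19, of which the second lay within the DMSO range. The change with dexamethasone was -0.21 ± 0.059 (adjusted p = 0.0259). It was -0.12 ± 0.058 (adjusted p = 0.254) without dexamethasone replicate 3, the array with the narrow spread of values, and the call was also lost without DMSO replicate 1 (adjusted p = 0.110) or 3 (adjusted p = 0.0767), in a model of the 6 arrays (adjusted p = 0.688) and with the spread of each array as a covariate (adjusted p = 0.0989). Over the 20 groups the means ran from 12.07 with VPA to 12.87 with retinoic acid, and 17 of 19 neighbouring groups overlapped. The exceptions were paracetamol against dexamethasone, with the widest gap of 0.25, and metoclopramide against retinoic acid.

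Utf1 encodes a chromatin-associated protein of undifferentiated embryonic stem cells and germ cells. It fell with VPA alone among the 19 compounds. Its promoter is shown as that of the gene whose response to VPA differed most clearly from that to paracetamol. RefSeq (GRCm38.p6) places the 250 bases before its start at chr7:139943606-139943855 on the plus strand, and the capitals mark GGGCGG, the GC box bound by Sp1, which occurs 4 times, the first 2 of them sharing a letter.
Utf1: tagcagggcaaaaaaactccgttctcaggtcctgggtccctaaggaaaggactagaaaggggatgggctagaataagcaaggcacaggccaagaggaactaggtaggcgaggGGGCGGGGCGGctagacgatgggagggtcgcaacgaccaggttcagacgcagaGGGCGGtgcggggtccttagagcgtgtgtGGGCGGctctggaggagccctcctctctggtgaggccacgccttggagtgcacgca
At least 1 GC box stands in 33% of the 32536 windows, and none of the other 6 motifs searched stands in this one. The DMSO arrays of Utf1 read 13.07, 13.09 and 13.12 (mean 13.10 ± 0.024, SD, n = 3) and the VPA arrays 12.79, 12.85 and 12.78. The 3 VPA arrays lay below all DMSO arrays. The change was -0.29 ± 0.068, to 81.7% of the DMSO signal (adjusted p = 0.000729).

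With paracetamol the Utf1 arrays read 13.08, 13.07 and 13.10, within the DMSO range, a difference of -0.01 ± 0.068 with a 95% interval from -0.15 to 0.13. The retinoic acid arrays were spread widely, at 13.01, 12.78 and 13.17, and so were the dexamethasone arrays, at 13.27, 13.08 and 12.79. Neither differed from DMSO beyond that spread (adjusted p = 0.341 for retinoic acid). The highest mean, 13.22 with clozapine, stood 0.12 above DMSO and was not called. The widest gap in the order of the 20 means, 0.18, separated VPA from chlorthalidone, and 18 of the 19 neighbouring groups overlapped.

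Dppa2 and Dppa4 encode paired SAP domain proteins that bind DNA together and keep early embryonic genes open to activation. Dppa2 rose with retinoic acid and was called with no other compound. The values here are those of its brighter probe set, which are uncertain as values of the gene, as described with the second probe sets. Its DMSO arrays read 12.79, 12.72 and 12.80 (mean 12.77 ± 0.042, SD, n = 3) and its retinoic acid arrays 13.18, 13.25 and 13.17. The retinoic acid arrays lay above those of every other group, with a gap of 0.37 to the next mean, that of thalidomide. The change was 0.43 ± 0.044, to 135% of the DMSO signal (adjusted p = 1.32e-10). With VPA the 3 arrays all read 12.70, below each DMSO array, but the difference of -0.08 ± 0.044 was not called (adjusted p = 0.238). With glybenclamide (-0.11 ± 0.044, adjusted p = 0.114) and loratadine (-0.10 ± 0.044, adjusted p = 0.0961) Dppa2 missed the threshold too. The loratadine difference passed in 4 of 11 other settings, with a lowest adjusted p of 0.00484, and the glybenclamide difference in 2 of 11, with a lowest of 0.00694. Without glybenclamide replicate 1 the latter was -0.07 (adjusted p = 0.480).

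Dppa4 fell with VPA and was called with no other compound in the model of all 60 arrays. The DMSO arrays read 10.94, 10.81 and 11.06 (mean 10.94 ± 0.122, SD, n = 3) and the VPA arrays 10.67, 10.68 and 10.52. The VPA arrays all lay below the lowest DMSO array. The change was -0.31 ± 0.096 (adjusted p = 0.0105). It missed the threshold without DMSO replicate 3 (adjusted p = 0.0841) or without VPA replicate 3 (adjusted p = 0.0742). With retinoic acid, where Dppa2 rose, the Dppa4 arrays read 10.99, 10.98 and 10.99, inside the DMSO range, a difference of 0.05 ± 0.096 with an interval from -0.14 to 0.25. The dexamethasone arrays were widely spread, at 10.49, 10.65 and 11.04, and the third lay within the DMSO range. The difference of -0.21 ± 0.096 was not called (adjusted p = 0.184). It was -0.37 without dexamethasone replicate 3, the array of narrow spread (adjusted p = 0.0262), -0.09 without dexamethasone replicate 1 (adjusted p = 0.601), and 0.02 in the dimmer Dppa4 set. Against the mean of the other 18 compounds it was called too (adjusted p = 0.0190). All 19 neighbouring groups overlapped in the order of the Dppa4 means, which ran from 10.62 with VPA to 11.09 with sulfasalazine.

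Dppa3, also called Stella, encodes a protein that holds back DNA methylation in oocytes, germ cells and naive stem cells. It was the 1 gene of the 7 that was called with no compound. The median SD within a group was 0.114 for Dppa3, against 0.0335 to 0.0679 for the 6 others. Its DMSO arrays read 9.06, 8.95 and 9.07 and its retinoic acid arrays 8.93, 8.51 and 8.74, a difference of -0.30 ± 0.112 (adjusted p = 0.0807). The paracetamol arrays read 8.81, 8.78 and 8.77, a difference of -0.24 ± 0.112 (adjusted p = 0.220). Both groups lay below all DMSO arrays without passing the test. With loratadine, where the mean was highest at 9.17, the difference was 0.14 ± 0.112. The retinoic acid difference rested on single arrays. It was -0.40 without retinoic acid replicate 1 (adjusted p = 0.0303) and -0.19 without retinoic acid replicate 2 (adjusted p = 0.439), and it passed after quantile normalisation (adjusted p = 0.0377). The paracetamol difference passed in a model of the 6 arrays alone (adjusted p = 0.0391), as the mean of both Dppa3 probe sets (adjusted p = 0.0157) and in the dimmer set, described with the second probe sets. With any 1 of its 6 arrays left out it stayed uncalled, with an adjusted p up to 0.422.

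Lin28a encodes an RNA-binding protein that blocks the maturation of let-7 microRNA precursors and binds many messenger RNAs. It fell with VPA, paracetamol, glybenclamide and loratadine and rose with no compound. The DMSO arrays read 11.50, 11.56 and 11.53 (mean 11.53 ± 0.031, SD, n = 3). The VPA arrays read 11.11, 11.27 and 11.16, the paracetamol arrays 11.23, 11.31 and 11.36, the glybenclamide arrays 11.33, 11.30 and 11.31 and the loratadine arrays 11.33, 11.37 and 11.37. All 12 lay below the lowest DMSO array. The changes were -0.35 ± 0.049 with VPA (78.5% of the DMSO signal, adjusted p = 1.62e-07), -0.23 ± 0.049 with paracetamol (adjusted p = 0.00101), -0.21 ± 0.049 with glybenclamide (adjusted p = 0.00244) and -0.17 ± 0.049 with loratadine (adjusted p = 0.00987). The loratadine call was lost without DMSO replicate 2 (adjusted p = 0.0569), which also held the Fbxo15 call, so that without it 0 genes were called with loratadine.

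The let-7 precursors are shown as the known targets of the Lin28a protein, which recognises the letters GGAG in their loop. RefSeq (GRCm38.p6) lists 11 mouse let-7 hairpins, of which 9 hold GGAG. The hairpins of Mirlet7f-1 (chr13:48537829-48537917, minus strand) and Mirlet7g (chr9:106178840-106178927, plus strand), which were named by the size of their change, are printed with GGAG in capitals, and each mature microRNA follows with its seed, bases 2 to 8, in capitals.
Mirlet7f-1 hairpin: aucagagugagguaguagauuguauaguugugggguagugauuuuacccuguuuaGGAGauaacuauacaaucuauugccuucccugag
Mirlet7g hairpin: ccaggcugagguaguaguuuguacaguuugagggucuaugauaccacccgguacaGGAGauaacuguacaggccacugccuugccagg
mmu-let-7f-5p: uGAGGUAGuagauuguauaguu
mmu-let-7g-5p: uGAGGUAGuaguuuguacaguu
Both mature forms carry the same seed, GAGGUAG. The probe set of Mirlet7f-1 fell with VPA by 0.65 ± 0.126 (adjusted p = 6.08e-05). That of Mirlet7g fell with VPA by 0.34 ± 0.081 (adjusted p = 0.000923), with paracetamol by 0.28 ± 0.081 (adjusted p = 0.0186) and with dexamethasone by 0.34 ± 0.081 (adjusted p = 0.00967). Both probe sets were dim, brighter than 8.36% and 13.8% of those tested, and they read the annotated precursor gene, not the mature microRNA. Outside the naming rule, Mirlet7d fell with VPA by 0.35 ± 0.116 and Mirlet7e with loratadine by 0.23 ± 0.084, and the 5 other let-7 genes measured were called with none of the 6 compounds.

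Among 27 measured genes of the Lin28 and let-7 pathway, VPA lowered 8 and raised 2, with a median change of -0.11 against -0.01 over all probe sets. The largest after Mirlet7f-1 were the cyclin gene Ccnd1 (-0.44 ± 0.050), the growth regulator Mycn (-0.44 ± 0.047) and Arid3a (0.42 ± 0.060), which encodes a DNA-binding factor. Paracetamol lowered 5 and raised 0, led by the RNA-binding protein gene Igf2bp3 (-0.41 ± 0.077). Its median was -0.07 against 0.01. Loratadine raised 5 and lowered 6, among them Trim71 (-0.47 ± 0.076), Myc (-0.45 ± 0.062) and the microprocessor gene Dgcr8 (-0.33 ± 0.055), while Tut4, which encodes the enzyme that Lin28a recruits to precursors, rose by 0.29 ± 0.070 (adjusted p = 0.00222). Glybenclamide raised Tut4 by 0.22 ± 0.070 and Tut7 by 0.20 ± 0.063 and lowered none of the 27. The shares of all probe sets called lower and higher were 11% and 15.5% with VPA and 4.15% and 4.61% with paracetamol. They were 8.26% and 10.9% with loratadine and 2.75% and 6.79% with glybenclamide, whose count of 2 raised lies near the background.

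VPA and retinoic acid were both classed as teratogens, at 1 mM and 0.024 mM, and their levels were set against each other in the same model. In that contrast 33.1% of all probe sets were called, and 6 of the 7 genes were lower with VPA. The difference was -0.80 ± 0.059 for Nr0b1 (adjusted p = 1.04e-15), -0.74 ± 0.073 for Fbxo15 (adjusted p = 9.28e-12) and -0.51 ± 0.044 for Dppa2 (adjusted p = 2.53e-13). Dppa4 (-0.37 ± 0.096), Lin28a (-0.31 ± 0.049) and Utf1 (-0.18 ± 0.068, adjusted p = 0.0322) followed. Dppa3 was 0.19 ± 0.112 higher with VPA, which was not called (adjusted p = 0.204). The retinoic acid dose lay far below that of VPA, so the contrast sets 2 exposures side by side and not matched doses.

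VPA and paracetamol were both given at 1 mM, and a contrast between them was added after the values had been seen, because both lowered Fbxo15, Nr0b1 and Lin28a. Of all probe sets 20.4% were called in it, and of the 7 genes Utf1 alone was, being 0.28 ± 0.068 lower with VPA (adjusted p = 0.00161). Fbxo15 was 0.15 ± 0.073 higher with VPA (adjusted p = 0.145, interval 0.01 to 0.30), although every paracetamol array lay below every VPA array. For Nr0b1 the difference was -0.06 ± 0.059 (interval -0.18 to 0.06) and for Lin28a -0.12 ± 0.049 (adjusted p = 0.0898, interval -0.22 to -0.02). Without paracetamol replicate 1 or without VPA replicate 2 the count was 2. A difference that misses the threshold does not show that the compounds act alike.

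**Figure D3:**
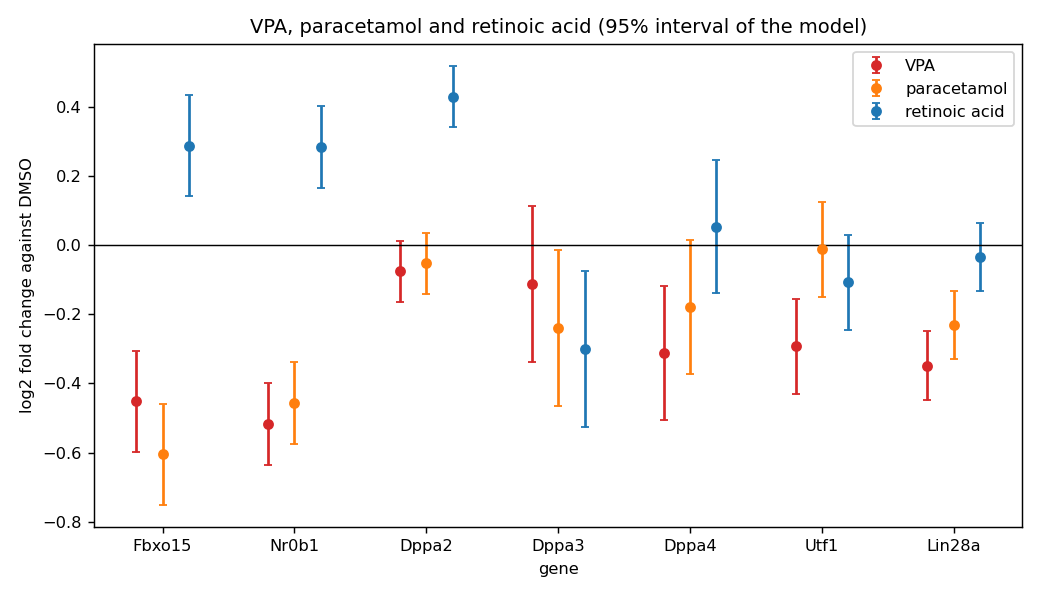
Log2 change against DMSO (vertical axis) of the 7 genes (horizontal axis) with VPA, paracetamol and retinoic acid; points are estimates and bars are 95% intervals of the limma model. VPA and paracetamol lie below 0 for Fbxo15, Nr0b1 and Lin28a, retinoic acid lies above 0 for Fbxo15, Nr0b1 and Dppa2, and only VPA clears 0 for Dppa4 and Utf1. For Dppa3 the intervals of retinoic acid and paracetamol lie below 0, though neither change was called.

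The antiepileptic drug topiramate and dimethadione, the active metabolite of another antiepileptic drug, were also given at 1 mM. Against topiramate 30.4% of all probe sets were called and 5 of the 7 genes were lower with VPA: Nr0b1 by -0.49 ± 0.059, Fbxo15 by -0.41 ± 0.073, Utf1 by -0.37 ± 0.068, Lin28a by -0.33 ± 0.049 and Dppa4 by -0.27 ± 0.096 (adjusted p = 0.0246). Against dimethadione 27.6% were called and 6 of the 7 were lower with VPA, now also Dppa2 (-0.13 ± 0.044, adjusted p = 0.0199). Fbxo15 differed most there, by -0.67 ± 0.073, and its dimethadione arrays of 11.29, 11.17 and 11.43 reached above DMSO. Dppa3 was called in neither. The diuretics chlorthalidone and hydrochlorothiazide, both sulfonamides at 1 mM, differed in 0 of the 7 genes by limma, against 5.33% of all probe sets. Utf1 (-0.14 ± 0.068) and Lin28a (-0.11 ± 0.049) were lower with chlorthalidone at an unadjusted p under 0.05, and the other 5 had intervals that included 0, for Fbxo15 from -0.21 to 0.08.

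Teratogens and non-teratogens were compared over 10 and 9 compound means, so that each compound counted once. The comparison called 0% of the probe sets. None of the 7 genes was called by limma, nor was any of the 21789 probe sets, of which 955 had an unadjusted p under 0.05. The largest difference was that of Dppa2, with 12.82 ± 0.141 (SD, n = 10) for teratogens and 12.74 ± 0.050 (SD, n = 9) for non-teratogens, a difference of 0.07 ± 0.048 (adjusted p = 0.976). Without VPA and retinoic acid it was 0.04 ± 0.029. Fbxo15 had a mean of 11.10 in both classes, with an SD of 0.198 among teratogens and 0.250 among non-teratogens. The compounds that lowered it most, paracetamol and then VPA, belong to different classes. Retinoic acid, which raised it most, is classed as a teratogen like VPA.

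The 7 genes did not move as a block. With VPA all 7 means lay below DMSO and with paracetamol all 7 did, whereas with retinoic acid 4 lay above and 3 below. Over the 20 group means Fbxo15 and Nr0b1 were the most alike of the 21 pairs, with a Pearson correlation of 0.85, which was 0.75 without VPA and retinoic acid. Paracetamol, lowest for Fbxo15 and next to lowest for Nr0b1, stayed in that second value, and its weight there was not tested. Within groups, over the 60 arrays, the same pair had a correlation of 0.03. Nr0b1 and Lin28a followed with 0.81, and Dppa2 and Dppa3 had -0.42. These correlations describe 20 means that share arrays and normalisation. Loratadine stood off the common line, with Fbxo15 up and Nr0b1 at -0.13 ± 0.059 (adjusted p = 0.128).

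**Figure D4:**
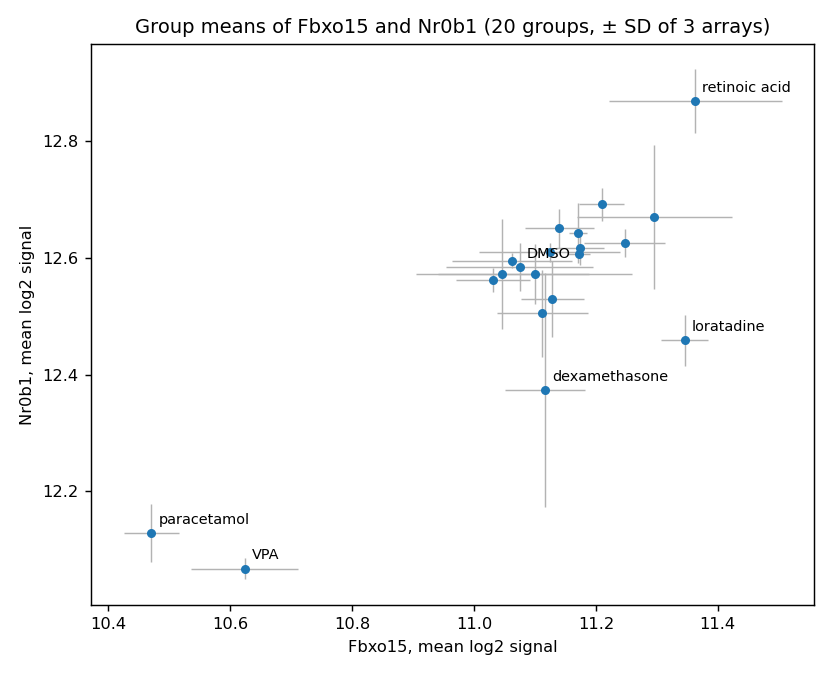
Mean log2 signal of Fbxo15 (horizontal axis) and Nr0b1 (vertical axis) in the 20 groups, with bars of ± 1 SD over 3 arrays. Paracetamol and VPA stand at the lower left, retinoic acid at the upper right, and loratadine to the right of and below the cluster that holds DMSO.

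The 9931 genes brighter than the median of the probe sets were ranked by how closely their 20 means followed those of each of the 7. For Fbxo15 the leaders were the vitamin C transporter gene Slc23a1 (r = 0.91), Vapa (0.90) and the chromatin remodeller gene Ino80 (0.88). Nr0b1 was followed by Adap1 (0.94), the nuclear receptor coactivator gene Ncoa3 (0.93) and Akirin2 (0.93). Dppa2, in its brighter probe set, was followed by Kit (0.94), a receptor of germ and stem cells, Wdr6 (0.94) and Nudt4 (0.94). Retinoic acid raised Kit by 0.94 ± 0.060, Wdr6 by 0.68 ± 0.078 and Nudt4 by 0.59 ± 0.061. With VPA, where Dppa2 was at -0.08, Kit was at -0.23 ± 0.060, Wdr6 at 0.02 ± 0.078 and Nudt4 at 0.11 ± 0.061. The weight of the retinoic acid group in these correlations was not tested.

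For Dppa4 the closest were Rabggtb (0.88), Smagp (0.88) and Wdr73 (0.87), for Utf1 the imprint regulator gene Zfp57 (0.91), the spermidine synthase gene Srm (0.91) and Psrc1 (0.90), and for Lin28a Trim24 (0.93), Wdr4 (0.92) and Atf7ip (0.91). Dppa3 had the weakest likenesses, Ubqln2 (0.81), Acot9 (0.81) and Psmb1 (0.80). The mean change of the 7 genes over 19 compounds was followed most closely by Snhg16 (0.95), Slc23a1 (0.94) and Ino80 (0.94). With VPA, Snhg16 fell by 0.61 ± 0.065 and Ino80 by 0.54 ± 0.052, and with paracetamol by 0.31 ± 0.065 and 0.49 ± 0.052.

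Of the core pluripotency regulators 15 were measured. VPA lowered 10 and raised 0, with a median of -0.52 against -0.01 over all probe sets. They were led by the nuclear receptor gene Nr5a2 (-1.13 ± 0.065), Sall1 (-0.78 ± 0.050), Prdm14 (-0.77 ± 0.077) and Gbx2 (-0.70 ± 0.055). Paracetamol lowered 11 and raised 0, with a median of -0.26 against 0.01, led by Nr5a2 (-0.49 ± 0.065), Prdm14 (-0.48 ± 0.077), Zfp42 (-0.38 ± 0.062) and Sall1 (-0.35 ± 0.050). Retinoic acid raised 4 and lowered 3, with a median of -0.03 against -0.03: Prdm14 rose by 0.61 ± 0.077 and Tbx3 by 0.51 ± 0.075. Loratadine raised 3, among them Klf2 (0.39 ± 0.072) and the orphan receptor gene Esrrb (0.34 ± 0.073), and lowered 3, among them Nr5a2 (-0.65 ± 0.065) and Gbx2 (-0.55 ± 0.055). The shares of all probe sets called lower and higher were 11% and 15.5% with VPA and 4.15% and 4.61% with paracetamol. They were 3.92% and 5.9% with retinoic acid and 8.26% and 10.9% with loratadine.

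Among 21 further stem cell markers, VPA lowered 11 and raised 1, led by Foxd3 (-1.22 ± 0.076) and Gdf3 (-1.20 ± 0.054), with a median of -0.19. Paracetamol lowered 12 and raised 0, with a median of -0.25, led by Foxd3 (-0.40 ± 0.076) and Tet2 (-0.36 ± 0.067). Retinoic acid raised 4 and lowered 3, loratadine raised 2 and lowered 6, dexamethasone lowered 3 and glybenclamide raised 2 and lowered 2. The shares of all probe sets called lower and higher were 11% and 15.5% with VPA and 4.15% and 4.61% with paracetamol. They were 3.92% and 5.9% with retinoic acid and 8.26% and 10.9% with loratadine. With dexamethasone they were 4.74% and 1.51%, and with glybenclamide 2.75% and 6.79%. In a list of 21, counts of 2 cannot be set apart from such shares. Of 12 measured genes of the two-cell embryo, a state that Dppa2 and Dppa4 help to open, limma called 0 with retinoic acid, against 9.82% of all probe sets, so the count lies near the background. At -0.02 their median lay near that of all probe sets, -0.03. VPA lowered 4 of them, against 11% of all probe sets, with a median of -0.18, led by Tdpoz3 (-0.88 ± 0.141) and Eif1a (-0.44 ± 0.063). Paracetamol lowered 2, against 4.15% of all probe sets. Dim probe sets limit that list, whose median level exceeded 26.6% of those tested.

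Of the enzymes of DNA methylation and demethylation and their partners, 8 were measured. Retinoic acid raised Dnmt3a (0.71 ± 0.057) and Tet2 (0.51 ± 0.067) and lowered Dnmt3l (-0.32 ± 0.051) and Dnmt3b (-0.22 ± 0.049). Paracetamol lowered 4, Tet2, Dnmt3a (-0.33 ± 0.057), Dnmt3b and Dnmt3l. VPA lowered 3, Tet2 (-0.49 ± 0.067), Tet1 (-0.47 ± 0.063) and Dnmt3b (-0.18 ± 0.049). Uhrf1 and Dnmt1, also measured, were called with none of these compounds. The shares of all probe sets called lower were 11% with VPA, 4.15% with paracetamol and 3.92% with retinoic acid, which called 5.9% higher. Tet1, Tet2, Dnmt3l and Trim71 belong to more than 1 of these lists.

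Beside these counts stand the markers of other cell types. Of all probe sets, VPA called 26.5%, loratadine 19.2%, retinoic acid 9.82% and paracetamol 8.76%. In lists of 5 to 12 markers, counts of 0 to 2 cannot be set apart from such shares. Of 12 feeder markers paracetamol changed 0 by limma, and VPA raised Thy1 by 0.48 ± 0.085 and lowered Col1a2 by 0.16 ± 0.058. Their mean level on an array lay between 8.81 and 8.84 with DMSO, between 8.75 and 8.82 with paracetamol and between 8.74 and 8.79 with VPA. Retinoic acid raised 1 and lowered 2 of the 12, and loratadine raised 1 and lowered 4. Of 7 primitive endoderm markers VPA raised 2, paracetamol lowered 1 and retinoic acid raised Gata6, a regulator of that lineage, by 0.87 ± 0.092. Of 7 trophectoderm markers VPA raised 1 and lowered 1, paracetamol changed 0 and retinoic acid lowered 1. Of 5 markers of differentiating ectoderm and mesoderm, VPA and paracetamol each lowered the eye and brain regulator Pax6 alone, by 0.88 and 0.38, and retinoic acid raised Pax6 by 0.52 and lowered 1 other. The part of these cells in the changes of the 7 genes was not tested.

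Dppa2, Dppa3 and Dppa4 each had a second, dimmer probe set. In that of Dppa2 the DMSO arrays read 10.39, 10.06 and 10.23 and the retinoic acid arrays 10.99, 11.33 and 10.81, a rise of 0.81 ± 0.123 (adjusted p = 1.79e-06), larger than the 0.43 of the brighter set. With VPA the dimmer Dppa2 set was at -0.29 ± 0.123 (adjusted p by limma 0.0759), against -0.08 in the brighter set. With paracetamol it was at -0.21 ± 0.123 (adjusted p by limma 0.381), against -0.05. Neither was called in either set. In the dimmer set of Dppa4 the DMSO arrays read 10.28, 10.24 and 10.36, the VPA arrays 9.99, 10.00 and 9.98 and the paracetamol arrays 10.06, 10.07 and 10.05. It fell by 0.31 ± 0.067 with VPA (adjusted p = 0.000268) and by 0.23 ± 0.067 with paracetamol (adjusted p = 0.0163), where the brighter set was at -0.18 ± 0.096 (adjusted p = 0.316). In the dimmer set of Dppa3 the DMSO arrays read 8.79, 8.64 and 8.74 and the paracetamol arrays 8.45, 8.28 and 8.37, a fall of 0.35 ± 0.078 (adjusted p = 0.00138), and it fell with hydrochlorothiazide by 0.28 ± 0.078 (adjusted p = 0.0440). With the dimmer sets, paracetamol called 5 of the 7 genes in place of 3.

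**Figure D5:**
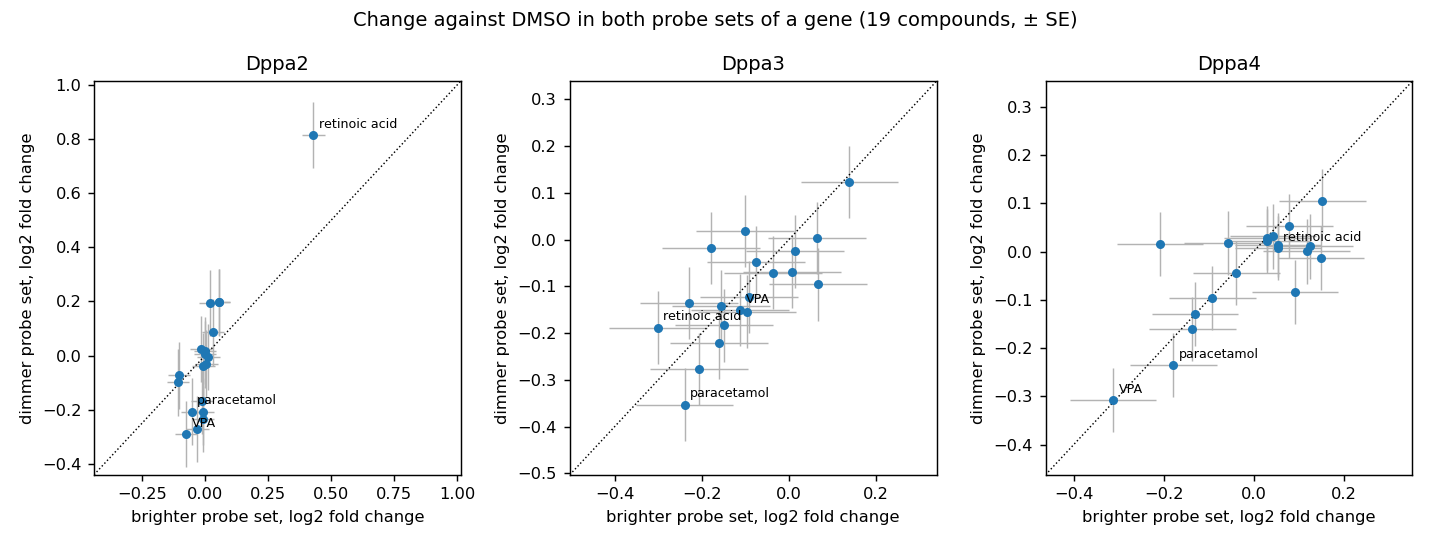
Log2 change against DMSO in the brighter probe set (horizontal axes) and the dimmer probe set (vertical axes) of Dppa2, Dppa3 and Dppa4 for 19 compounds, with bars of ± 1 SE and a dotted line where both are equal. Retinoic acid stands above the line for Dppa2, at 0.43 and 0.81, and VPA lies near the line for Dppa4, at -0.31 in both.

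The probe set numbers of this array run along the genome, so the RefSeq chromosomes of the 20 nearest numbers tell where a set lies. The dimmer Dppa2 set had 19 of its 20 neighbours on chromosome 16, which holds the gene, but the brighter Dppa2 set, used above, had 20 of 20 on chromosome 19. The brighter Dppa3 and Dppa4 sets had 18 of 20 and 19 of 20 neighbours on the chromosomes of their genes, 6 and 16, and the dimmer ones had 20 of 20 on X and on 2. The sets of the 4 other genes had 18 to 20 of 20 neighbours on their own chromosome. Whether the brighter Dppa2 set and the dimmer Dppa3 and Dppa4 sets read the gene itself or a near-identical copy was not tested, so their values are uncertain as values of the gene. The changes in both sets had a correlation over the 19 compounds of 0.89 for Dppa2, 0.73 for Dppa3 and 0.76 for Dppa4.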

How the data were processed

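The authors deposited a log2 signal for each of 35556 probe sets on each array, made with RMA, per the submitters' processing notes. Not given in the sources used here are its version, its options and a genome build. The 21789 probe sets annotated to 1 symbol (19938 symbols) were tested, and 1621 with several symbols and 12146 with no entry were kept for an alternative. One limma model (limma 3.58.1, R 4.3.3) of 60 arrays with a mean per group, 40 residual and 7.31 prior degrees of freedom, gave a contrast to DMSO for each compound and the contrasts between compounds. Benjamini-Hochberg adjustment ran separately in every contrast and covered all tested probe sets. All tests are two-sided. Classes were compared on 19 compound means. Arrays have no read depth, and 3 arrays per group limit the precision. The steps were tested on simulated data. Named genes were the 7 genes, the 3 most alike each, and up to 4 called per list. The genes, the lists and the comparisons were chosen with earlier results of these data known. Sequences come from RefSeq tables (GRCm38.p6). Promoters were kept for 3 of 7 genes, Nr0b1, Utf1 and Lin28a, and entries on chromosome 18, where Fbxo15 lies, were left out. The Lin28a promoter is not printed, and sequences of other promoters served only to count the windows that hold a motif.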

Additional observations from a re-analysis of the deposited data

How the results depend on the processing

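The 15 calls became 14 to 21 under 11 other settings, and 12 (without DMSO replicate 2) to 16 when 1 array was left out. The settings were quantile normalisation, other probe set filters, a model of 6 arrays, trend and robust eBayes, the spread of each array or a letter b in the titles as covariate, the other 18 compounds as reference, other probe sets of a gene and, chosen after seeing the data, leaving out the 3 arrays of narrowest spread and using the dimmer sets. The count with glybenclamide was 2 under quantile normalisation and against the other 18 compounds. With dexamethasone it was 0 in the 6-array model and with the spread as covariate, and 2 against the other 18. With loratadine it was 4 against the other 18 and 3 under quantile normalisation, with the letter b and without the narrow arrays, where Dppa2 was also called. With paracetamol it was 5 with the dimmer sets. With retinoic acid it was 4 under quantile normalisation and 2 in the 6-array model, and with VPA 6 against the other 18. Hydrochlorothiazide had 1 call against the other 18 and 1 with the dimmer sets. In each case the cause was not tested. With 1 array left out, the counts ran from 1 to 1 for glybenclamide, 2 to 4 for retinoic acid, 0 to 2 for dexamethasone, 0 to 2 for loratadine, 3 to 3 for paracetamol and 4 to 5 for VPA. They ran from 5 to 6 for VPA minus retinoic acid, 4 to 5 for VPA minus topiramate, 5 to 6 for VPA minus dimethadione, 0 to 0 for the diuretics and 1 to 2 for VPA minus paracetamol. The 26 pairs of a gene and a compound with an unadjusted p under 0.05 were followed one by one. Of these, Dppa4 with dexamethasone alone turned its direction, from -0.21 to 0.02 in the dimmer set, and it was called in neither. Genes of the lists, genes named for likeness and the other pairs were not rerun under these settings. The falls of Fbxo15, Nr0b1, Utf1 and Lin28a with VPA, those of Fbxo15, Nr0b1 and Lin28a with paracetamol and the rises of Nr0b1 and Dppa2 with retinoic acid kept their call under every setting run. So did the fall of Lin28a with glybenclamide, with an adjusted p by limma of up to 0.0435. The adjusted p by limma also came near the threshold for Lin28a with paracetamol (up to 0.0455) and Nr0b1 with retinoic acid (up to 0.0392). No paired analysis was possible because replicate numbers follow the order of deposit alone. The limit of precision is 3 arrays per group and 3 shared controls.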
